A study of Mus musculus with 8 samples.

Results

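The genes described here encode the route by which parathyroid hormone (PTH) acts through its receptor on cyclic AMP-dependent protein kinase (PKA). They were chosen by name, not by a measured value, as 10 of the 47643 named genes in the deposited expression table. Earlier results of these data were known when the choice was made. They comprise the local ligand Pthlh, the receptor Pth1r, the stimulatory G protein alpha subunit gene Gnas, the PKA catalytic subunits Prkaca and Prkacb, the PKA regulatory subunits Prkar1a, Prkar2a and Prkar2b, the transcription factor Creb1 and the arrestin Arrb1. Of the 10 genes, 9 passed the filter on low counts, and Pthlh did not.

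PTH and the PTH-related protein made from Pthlh bind the same receptor on cells of the osteoblast lineage, and intermittent PTH is used as a bone-building treatment. The bound receptor turns on Gs, Gs turns on adenylyl cyclase, and the cyclic AMP that is made binds the regulatory subunits of PKA, which then let go of the catalytic subunits. Freed catalytic subunits phosphorylate CREB and other proteins, while phosphodiesterases break down cyclic AMP and beta-arrestins bind the phosphorylated receptor.

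The study asked what the loss of Mettl3, the catalytic subunit of the main mRNA N6-methyladenosine (m6A) methyltransferase, does to bone marrow mesenchymal stem cells (MSCs) of C57BL/6 mice. The wild type mice of the RNA-seq were Mettl3fl/fl. RNA-seq comprised 2 wild type libraries and 2 libraries of the genotype Prx1-Cre;Mettl3fl/fl. There, the Prx1 promoter drives Cre in the early limb bud mesenchyme, so that floxed exons of Mettl3 are deleted in its descendants. MeRIP-Seq, which recovers RNA fragments carrying m6A with an antibody, was made from wild type cells only, with 2 m6A immunoprecipitates and 2 inputs but 1 deposited peak list. All 8 samples had spent 2 days in osteogenic medium, whose additions were dexamethasone at 100 nM, β-glycerophosphate at 5 mM and ascorbic acid at 50 µg/ml, and no sample was labelled as treated with PTH. Prx1-Cre is not active in the blood lineage, and the labels give no age.

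The library totals ran from 23948219 to 34069228 counts over named genes. Mettl3 stood at 17.6 and 16.9 counts per 1000000 (CPM) in the wild type libraries and at 17.5 and 16.3 CPM in the other pair, with an adjusted p of 0.824 (edgeR). The counts over the whole gene thus did not separate the genotypes, and the groups are called control-labelled and knockout-labelled below. The deletion removes only part of the gene. The paper reports loss of Mettl3 protein by immunostaining and western blot, and a lower m6A level in the MSCs by mass spectrometry. The 2 knockout-labelled libraries differed by little more than counting noise, with a chi-square of 1.82 per degree of freedom over genes, against 32.6 for the control-labelled pair. The labels do not say whether replicates came from separate mice, and the p-values measure only the spread between these libraries. The 6 macrophage markers summed to 16422 and 21942 transcripts per 1000000 (TPM) in the control-labelled pair against 23778 and 23962 TPM in the knockout-labelled pair, of which Lyz2 alone made up 87.8% to 91.7%. The other 5 macrophage markers summed to 2004 and 1825 against 2213 and 2252 TPM. None of the 6 macrophage markers was called by edgeR or by DESeq2, and 1 was higher at an unadjusted p under 0.05. All 5 chondrocyte markers fell, from 1259 and 1260 to 32.9 and 31.7 TPM in sum, all 6 osteoblast markers fell, from 645 and 692 to 424 and 439 TPM, and of 5 adipocyte markers 4 rose and 1, Cidec, fell, with the sum going from 278 and 292 to 539 and 539 TPM. The 8 stromal markers summed to 785 and 740 against 730 and 710 TPM, with 3 higher and 4 lower. Of the endothelial markers 2 of 3 tested rose, from 1.16 and 1.31 to 9.14 and 7.83 TPM in sum, both tested osteoclast markers fell, from 114 and 98.4 to 70.6 and 69 TPM, and the 1 neutrophil marker tested fell, with the list going from 17.2 and 19.2 to 5.11 and 2.37 TPM. Erythroid and B cell markers summed to at most 0.5 TPM, and none was tested. The part of these cell type markers in the results below was not tested, and in such bulk samples fewer cells of a type and less RNA per cell cannot be told apart.

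The deposited m6A peaks placed methylation on 6 of the 10 genes, with 7 summits in all. The summits of 5 of these peaks lie in coding sequence. For each, only the coding part of the peak within that exon is printed, up to 240 bases. The prints show where the summits sit and which of these stretches hold GGAC. The letters GGAC are a common form of the short sequence whose adenosine is methylated, and they stand in capitals below. All positions are on mm9 with GENCODE vM1 transcripts.
Pth1r, last exon, the final coding bases up to the last one before the stop codon, chr9:110624761-110625000, minus strand: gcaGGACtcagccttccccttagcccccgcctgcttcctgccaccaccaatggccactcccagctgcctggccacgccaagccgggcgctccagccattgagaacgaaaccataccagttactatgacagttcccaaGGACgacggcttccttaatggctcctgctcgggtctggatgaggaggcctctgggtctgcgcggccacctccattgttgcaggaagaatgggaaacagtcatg
Prkar2a, last coding exon up to the last coding base, chr9:108649192-108649322, plus strand: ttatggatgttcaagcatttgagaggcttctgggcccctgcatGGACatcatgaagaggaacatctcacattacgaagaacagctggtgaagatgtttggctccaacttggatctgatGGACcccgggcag
Prkar2b, first exon from the start codon, chr12:32745762-32745947, minus strand: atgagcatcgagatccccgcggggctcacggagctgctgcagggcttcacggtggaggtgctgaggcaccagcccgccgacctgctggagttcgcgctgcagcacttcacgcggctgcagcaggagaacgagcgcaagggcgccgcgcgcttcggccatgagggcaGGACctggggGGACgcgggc
Creb1, last coding exon, chr1:64643808-64643889, plus strand: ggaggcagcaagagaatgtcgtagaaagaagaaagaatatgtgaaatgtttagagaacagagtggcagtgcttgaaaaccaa
Gnas, first coding exon from the start codon, chr2:174155797-174155875, plus strand: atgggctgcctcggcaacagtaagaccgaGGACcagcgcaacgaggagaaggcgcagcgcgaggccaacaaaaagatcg
The peak on Arrb1 lay in the 3′ untranslated region, and a 30-base window around the GGAC next to its summit is given for comparison.
Arrb1, 3′ untranslated region, chr7:106752552-106752581, plus strand: tgctgacagattgGGACttgggccaccaaa

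The summits of 3 genes sat close to the end of the coding sequence. The Pth1r summit was 50 nt, the Prkar2a summit 8 nt and the Creb1 summit 107 nt before the last coding base, and over all peaks 30.5% of the 8265 summits on a representative coding transcript were within 200 nt of it on either side. The Prkar2b summit lay at the opposite end of its transcript, at coding base 107 in exon 1 of 11, which is 1141 nt before the last coding base. The Arrb1 summit lay 2852 nt past the last coding base. Its 3′ untranslated region holds 5562 nt in the representative coding transcript, and 4 of its 5 coding transcripts end before the summit.

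**Figure D1:**
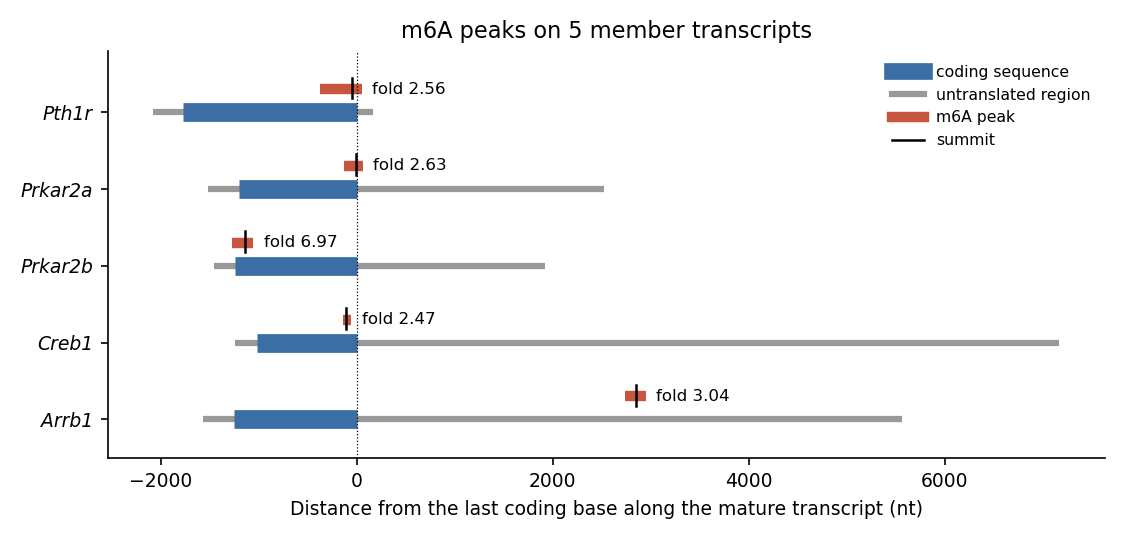
Deposited m6A peaks (red, black tick at the summit) on the representative mature transcripts of 5 genes, with distance from the last coding base in nt on the horizontal axis, coding sequence in blue and untranslated regions in grey. The label beside each peak is its fold enrichment; Pth1r, Prkar2a and Creb1 peak near the end of the coding sequence, Prkar2b near its start with a fold of 6.97, and Arrb1 far into the 3′ untranslated region.

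The Prkar2b peak was the most enriched of the 7. Prkar2b encodes the RIIβ regulatory subunit, which is abundant in fat and brain. Its peak had a 6.97-fold enrichment over the local background, above 88.9% of the 10160 peaks, although only 29 fragments piled up at the summit. The peak spanned chr12:32745762-32745979 and held 2 GGAC, both past the summit in the direction of transcription, by 62 and 72 nt.

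The Pth1r peak was 446 bases long, at chr9:110624713-110625158, and had 93 fragments at the summit, more than 73.3% of all peaks. Its fold enrichment of 2.56 was above only 12.9% of peaks, whose median was 4.03, and its −log10 q was 12. All 3 coding transcripts of Pth1r have coding sequence at the summit. It held 6 GGAC, 4 in the coding sequence and 2 in the 3′ untranslated region, of which the nearest to the summit lay 50 nt before it. The 30 bases around that one read tgacagttcccaaGGACgacggcttcctta.

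The remaining peaks had fold enrichments from 1.52 to 3.04. Prkar2a, which encodes the RIIα regulatory subunit, had a 2.63-fold peak at chr9:108649157-108649381 with 64 fragments at the summit, and 1 of its 2 GGAC lay 2 nt before the summit. Arrb1 had a 3.04-fold peak at chr7:106752456-106752664 with 89 fragments and a −log10 q of 15.8, the highest of the 7, and a GGAC whose adenosine was 1 nt before the summit. Creb1 had a 2.47-fold peak at chr1:64643673-64643889 with 26 fragments, a −log10 q of 2.52, and no GGAC. Of peaks within a gene and 200 to 330 bases long, 80.2% held at least 1 GGAC. The first 82 bases of the last Creb1 coding exon lie under its peak, and the other bases of the peak precede that exon.

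Gnas carried 2 weak peaks. The first, at chr2:174155550-174155875, had a fold of 1.52, near the lowest in the list (1.43), and its summit lay in the coding sequence of 5 of the 14 coding transcripts and in an intron of 7. The second, at chr2:174166998-174167324, had a fold of 1.8, and its summit fell in an exon of a noncoding transcript. No peak summit lay within Pthlh, Prkaca, Prkacb or Prkar1a. In a setting that kept only peaks with a −log10 q of at least 10, those on Pth1r, Prkar2b and Arrb1 remained. The methods do not say whether replicates were pooled for the list, so no spread between immunoprecipitates can be given.

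Pthlh, the ligand, was at the detection limit in every library. It had 0 and 2 counts in the control-labelled pair and none in the knockout-labelled pair. The limit that a count of 0 allows, 3 counts, corresponds to 0.0887 to 0.124 CPM. Pth, which encodes the circulating hormone, and Pth2 had no counts in any library, and the second receptor gene Pth2r had 1 in all. Ligand transcripts in these cultures were thus at the detection limit at this depth, and ligand protein was not measured in these libraries.

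Pth1r was low, and no difference was detected on counts. It held 481 and 478 counts in the control-labelled pair against 386 and 481 counts in the knockout-labelled pair, or 14.2 and 16.9 CPM against 15.9 and 15.1 CPM. The groups overlapped, and the knockout-labelled values lay between the control-labelled ones. The log2 fold change was −0.00423 (95% confidence interval −0.28 to 0.28, adjusted p = 0.983, edgeR), so a change of up to about that size in either direction was not detectable. On the length-normalised scale the values were 11.1 and 13.6 TPM against 16.4 and 14.9 TPM, and the groups did not overlap. The gap between the log2 ratio on TPM and that on CPM was 0.35 for Pth1r, wider than for 96.6% of genes, while the median gap of all genes was 0.0998. No alternative called Pth1r, and the adjusted p-values ran from 0.131 on TPM (limma) to 0.999. Myl3, which overlaps Pth1r on the opposite strand, held at most 4 counts per library.

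Gnas, which encodes the stimulatory G protein alpha subunit and other imprinted transcripts of the same locus, had the most counts of the 10 genes. It stood at 825 and 834 CPM in the control-labelled pair against 751 and 763 CPM in the knockout-labelled pair. The groups did not overlap, the log2 fold change was −0.13, and the adjusted p was 0.118 (unadjusted 0.0498). On TPM the means were 726 ± 10.2 and 709 ± 9.13 (SD, n = 2 each), a log2 ratio of −0.03. Counts over the whole gene cannot tell the Gs alpha transcript from the others that start upstream of it, and Gm20721, on the opposite strand, held 40.1 to 63.2 counts per library.

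The catalytic subunits and Prkar1a, the RIα regulatory subunit gene, did not pass the test. Prkaca was at 64.9 and 70.8 CPM against 66.5 and 64.8 CPM, and the groups overlapped, with a log2 fold change of −0.05 (95% interval −0.21 to 0.12, adjusted p = 0.648, edgeR). Prkacb was at 191 and 159 CPM against 181 and 186 CPM, where the control-labelled pair spanned the other pair, with a log2 fold change of 0.07 (−0.15 to 0.29, adjusted p = 0.614, edgeR). Prkar1a was at 435 and 461 CPM against 454 and 457 CPM, with a log2 fold change of 0.02 (−0.12 to 0.17, adjusted p = 0.800, edgeR).

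The RII regulatory subunits fell. Prkar2b was at 90.2 and 94.1 CPM in the control-labelled pair against 52.6 and 52.3 CPM in the knockout-labelled pair. All values of one group were far from those of the other, and the knockout-labelled level was 0.569 times the control-labelled one (log2 fold change −0.81 ± 0.06 SE, adjusted p = 0.000292, edgeR). Of all tested genes, 9.73% had a lower log2 fold change. The call held in 10 of 11 alternatives and missed the threshold at 0.0764 in an ordinary linear model on TPM, with adjusted p-values from 1.84e-71 to 0.0764 over all of them.

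Prkar2a was at 79.4 and 84.1 CPM in the control-labelled pair against 69.7 and 67.4 CPM in the knockout-labelled pair. The groups did not overlap, and the change was smaller than in Prkar2b, at 0.838 times (log2 fold change −0.25 ± 0.06 SE, adjusted p = 0.0268, edgeR). The call was lost in 6 of 11 alternatives, including DESeq2 (0.0805) and leaving out knockout-labelled library 1 (0.241) or 2 (0.336), with a range of 2.86e-10 to 0.336. On TPM the ratio was −0.16 on the log2 scale.

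Creb1 and Arrb1 rose. Creb1, the transcription factor that PKA phosphorylates, was at 39.2 and 40.8 CPM in the control-labelled pair against 49.8 and 48.6 CPM in the knockout-labelled pair. The groups did not overlap, and the fold was 1.23 (log2 fold change 0.30 ± 0.07 SE, adjusted p = 0.0191, edgeR). DESeq2 gave 0.053, leaving out knockout-labelled library 1 or 2 gave 0.238 and 0.183, and over the 11 alternatives, 5 of which kept the call, the range was 1.32e-07 to 0.238.

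Arrb1, which encodes beta-arrestin 1, was at 145 and 157 CPM in the control-labelled pair against 194 and 188 CPM in the knockout-labelled pair. The groups did not overlap, and the fold was 1.26 (log2 fold change 0.34 ± 0.06 SE, adjusted p = 0.0106, edgeR), while 17.7% of tested genes rose further. On TPM the means were 57.6 ± 2.98 and 82.4 ± 3.92 (SD, n = 2 each), a log2 ratio of 0.52. The call held in 7 of 11 alternatives, DESeq2 among them, and was lost without knockout-labelled library 1 (0.163) or 2 (0.117), with a range of 1.4e-29 to 0.163. Arrb2, the other beta-arrestin gene, stood at 299 ± 32.3 against 415 ± 11.1 TPM (SD, n = 2 each). Its log2 fold change on counts was 0.29 (adjusted p = 0.0405, edgeR).

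**Figure D2:**
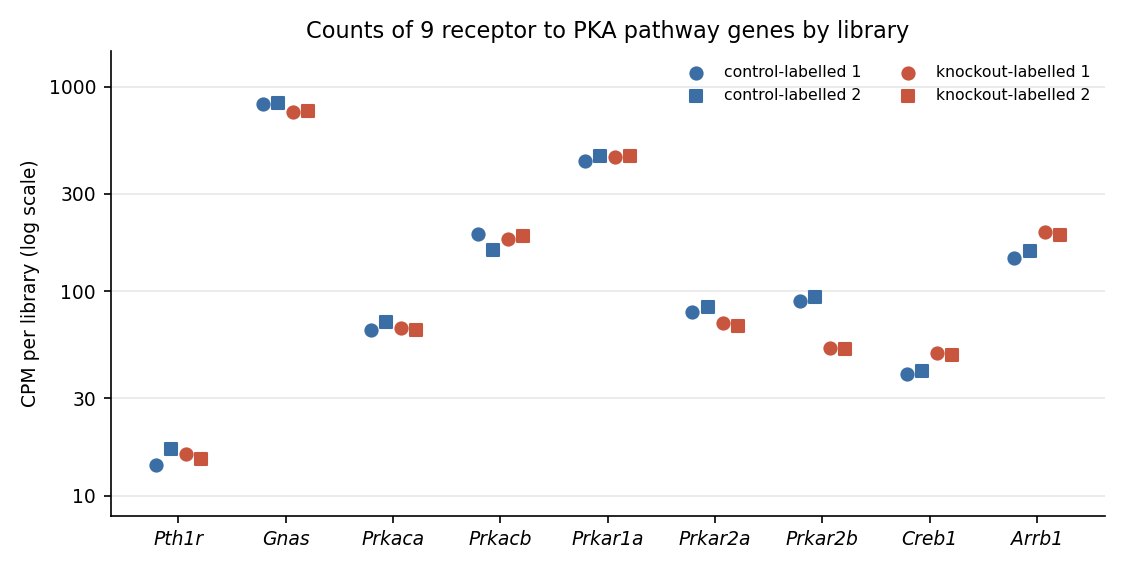
CPM (log axis) of the 9 tested genes in each of the 4 libraries, control-labelled in blue and knockout-labelled in red, circles for replicate 1 and squares for replicate 2. Prkar2b separates furthest, from 90.2 and 94.1 to 52.6 and 52.3 CPM, while Pth1r, Prkaca, Prkacb and Prkar1a overlap between the groups.

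In all, 4 of the 9 tested genes were called at an adjusted p under 0.05, 2 higher and 2 lower, which is 44.4% of them. Over all 15327 genes tested 30.5% were called, 13.7% higher and 16.8% lower. On CPM, 5 of the 9 genes did not overlap between the groups, 2 higher and 3 lower, against 68.9% of all genes (33.9% higher and 35% lower). The median absolute log2 fold change was 0.13 for the 9 genes and 0.25 for all genes. A share of 4 in 9 is not far from the background. The median change of these genes was below that of all genes, but the 4 called genes each lay above it. The median of all genes also includes genes of far lower level, down to 0.175 CPM. On TPM, where limma called 1636 genes higher and 1293 lower against 2100 and 2577 by edgeR on counts, 1 of the 9 genes was called higher and 1 lower.

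**Figure D3:**
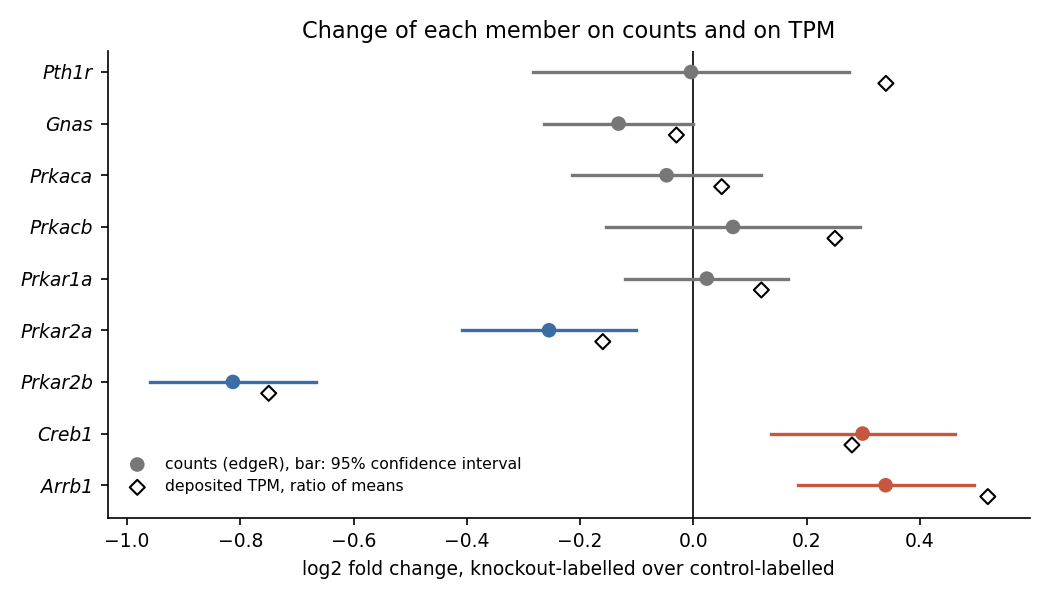
Log2 fold change of knockout-labelled over control-labelled libraries for the 9 tested genes, from counts (filled points with 95% confidence intervals, red called higher, blue called lower, grey not called) and as the ratio of mean TPM (open diamonds). Prkar2b lies at −0.81 on counts and −0.75 on TPM, and Pth1r shows the widest gap between the scales, 0.35.

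All 4 called genes carried an m6A peak, as did Pth1r and Gnas among the 5 that were not called. Over all tested genes 36.9% had a summit within them, and that share rose with expression, from 9.58% in the lowest to 54.3% in the highest of 4 equal groups of genes by level. It was 61.1% among genes called higher, 29.5% among genes called lower and 33.9% among the others. A peak was thus present on both genes that rose and on both that fell. Those on Prkar2a and Creb1 had a −log10 q of 8.55 and 2.52, and neither was kept at a −log10 q of at least 10. The peak list holds no knockout samples in which a loss of methylation could be seen.

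Levels can be compared between genes only per length, and the order of the genes depended on how length was taken into account. On the deposited TPM, Gnas was highest in the control-labelled libraries at 726 ± 10.2 TPM, followed by Prkar1a at 201 ± 1.41, Prkacb at 60.8 ± 12.6, Arrb1 at 57.6 ± 2.98, Prkaca at 43.0 ± 1.89, Prkar2b at 41.3 ± 1.55, Prkar2a at 22.7 ± 0.248, Creb1 at 17.1 ± 0.0495 and Pth1r at 12.4 ± 1.75 TPM (SD, n = 2 each). The neighbours Prkacb and Arrb1 overlapped, and so did Prkaca and Prkar2b. In the knockout-labelled libraries Arrb1, at 82.4 ± 3.92 TPM, was above Prkacb, at 72.2 ± 8.4, and Prkar2b, at 24.6 ± 0.636, was below Prkaca, at 44.6 ± 0.686. On CPM per 1000 bases of the gene length in the deposited table, the control-labelled order was Prkar1a at 104 ± 4.21, Gnas at 74.1 ± 0.531, Prkaca at 29.6 ± 1.82, Prkar2b at 25.2 ± 0.763, Prkacb at 20 ± 2.57, Arrb1 at 13.5 ± 0.715, Prkar2a at 12.8 ± 0.518, Pth1r at 5.32 ± 0.648 and Creb1 at 2.91 ± 0.0772 (SD, n = 2 each). There Arrb1 and Prkar2a overlapped. Between these scales Prkar1a and Gnas, Pth1r and Creb1, and the catalytic genes, among others, changed places, and Arrb1 stayed below Prkacb in the knockout-labelled pair on the second scale, at 17.1 ± 0.361 against 21 ± 0.419.

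On TPM, the shares of the regulatory subunit mRNAs did not overlap between the groups, while their sum was close to level. The 4 regulatory genes, including Prkar1b (RIβ), summed to 274 and 275 TPM in the control-labelled pair against 268 and 274 TPM in the knockout-labelled pair. Within that sum, Prkar2a and Prkar2b together took 22.9% and 23.7% in the control-labelled pair against 17.1% and 16.1% in the knockout-labelled pair. The share of Prkar2b alone was 14.7% and 15.4% against 9.34% and 8.84%, and Prkar1a took 73.9% and 72.8% against 80.4% and 81%. With 2 libraries against 2 the exact permutation test (two-sided) gave 0.33 for each, the smallest p it can give. Computed from counts divided by gene length, the RII share was 26.2% and 25.9% against 19% and 18.6%. The sum was not level on CPM per gene length, the second scale above. There Prkar1a was at 101 and 107 against 105 and 106, and Prkar2b at 24.7 and 25.8 against 14.4 and 14.3. Prkar2a was at 12.5 and 13.2 against 10.9 and 10.6, and Prkar1b was lower too, so the sum fell. The log2 ratio of Prkar1a was 0.12 on TPM and 0.02 on CPM. Prkar1b fell on its own (log2 fold change −0.49, adjusted p = 0.019, edgeR), from 9.18 to 7.34 TPM.

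**Figure D4:**
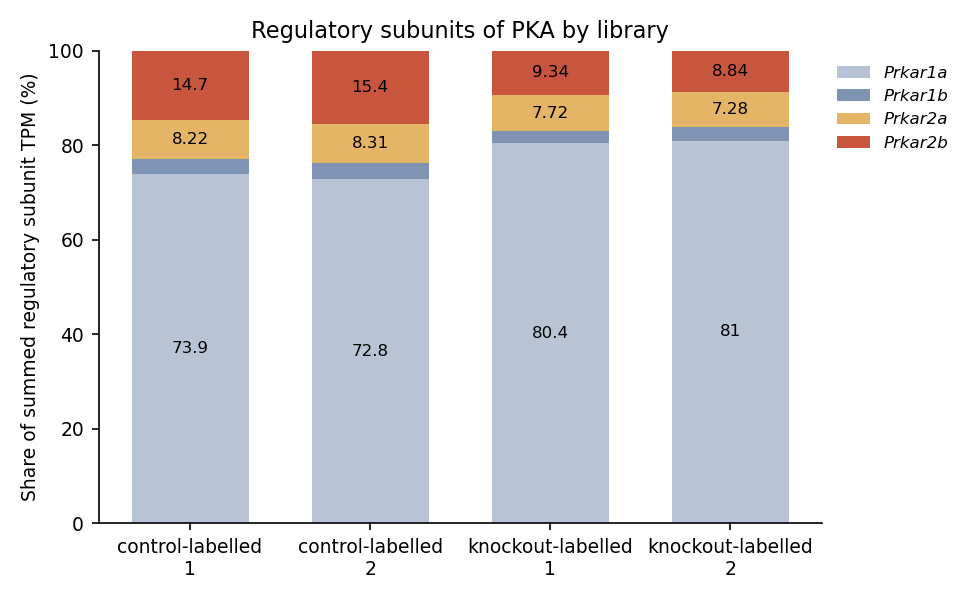
Share of each of the 4 regulatory subunit genes in their summed TPM, in percent, for each library. The Prkar2b share is 14.7% and 15.4% in the control-labelled pair against 9.34% and 8.84% in the knockout-labelled pair, and the Prkar1a share is higher in the latter.

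On TPM, the catalytic sum was less steady than the regulatory one. Prkaca and Prkacb summed to 111 and 96.2 TPM in the control-labelled pair against 111 and 122 TPM in the knockout-labelled pair, which overlap. The ratio of regulatory to catalytic TPM was 2.46 and 2.86 against 2.41 and 2.24, and the exact permutation p was 0.33. Prkacb took 62.6% and 53.9% of the catalytic sum against 59.5% and 63.9% on TPM. On counts per length it took 43.5% and 37% against 41.6% and 42.9%, so which of the 2 catalytic genes is the more abundant depended on the scale.

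The other genes of the pathway were described by 11 lists of 105 genes, of which 90 were tested. Of these, 29 were higher and 13 lower, or 46.7% called, with a median log2 fold change of 0.10. Over all genes 30.5% were called, with a median of −0.00378. By list, 77.8% of adenylyl cyclases were called, 35.7% of phosphodiesterases, 75% of other PKA subunits and inhibitors and 57.1% of the CREB family list. For the lists of salt-inducible kinases, of arrestin and receptor kinases, and of G alpha genes, the shares were 57.1%, 50% and 53.3%. These lists hold 4 to 15 tested genes each. The lists were chosen with earlier results of these data known, so the share called is a description and not a test of the pathway. Of the 29 called genes named below, 15 were called in at least 10 alternatives (Pde4d, Pde4b, Pde8b, Pkia, Akap12, Akap13, Crem, Adrbk2, Sik1, Hdac9, Hdac7, Gnai1, Gna15, Adcyap1r1 and Vipr1). The other 14 lost their call without knockout-labelled library 2, among them 10 (Adcy7, Adcy8, Adcy1, Pkig, Prkar1b, Crtc3, Arrb2, Gna14, Calcrl and Adrb1) that also lost it without knockout-labelled library 1, and Gna14 lost it without control-labelled library 2 as well.

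Of the 9 adenylyl cyclases tested, which make cyclic AMP, 3 rose and 4 fell. Adcy7, the most abundant on TPM, was at 30.1 ± 0.700 against 36.7 ± 0.134 TPM (SD, n = 2 each), and its log2 fold change on counts was 0.19 (adjusted p = 0.0495, edgeR). Adcy5 fell from 10.7 and 8.38 to 5.57 and 4.86 CPM (log2 fold change −0.88), Adcy1 rose from 2.66 and 1.91 to 4.66 and 4.24 CPM, and Adcy8 fell from 18 and 14 counts to 2 and 4 counts.

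Among 14 cyclic AMP phosphodiesterases, which degrade it or also cyclic GMP, 2 rose and 3 fell. Pde4d had 36.9 and 31.6 CPM in the control-labelled pair against 3.92 and 3.64 CPM in the knockout-labelled pair, 0.11 times the level (log2 fold change −3.18 ± 0.13 SE, adjusted p = 2.29e-05, edgeR). Pde4b had 26.4 and 26.2 CPM against 6.19 and 5.40 CPM, with a log2 fold change of −2.19. Both are cyclic AMP-specific enzymes whose transcription is known to be induced by cyclic AMP. Pde8b rose, from 1.98 and 1.98 to 5.12 and 6.24 CPM, and Pde1b, the most abundant on TPM, stood at 43.4 and 40.7 against 44.7 and 43.3 CPM and was not called.

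Of the other PKA subunit and the 3 PKA inhibitor genes, 2 rose and 1 fell. Pkig and Pkia, which encode small proteins that bind and block the free catalytic subunit, rose, Pkig with a log2 fold change of 0.31 from 44.0 and 47.0 to 58.4 and 54.8 CPM and Pkia with 0.91 from 8.99 and 6.19 to 14.4 and 14.3 CPM. Of 12 A-kinase anchoring proteins, which hold PKA at sites in the cell, 3 rose and none fell by edgeR. That is 25% called, against 30.5% of all genes tested. By DESeq2 4 were higher and none lower, and 6 were higher and 1 lower at an unadjusted p under 0.05 (edgeR). Akap12 rose from 146 and 91.2 to 482 and 482 CPM (log2 fold change 2.02), Akap13 with 0.61 and Akap2 with 0.42.

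In the CREB family and its coactivators, 3 of 7 tested genes rose and 1 fell. Crem, whose inducible repressor form is itself a cyclic AMP target, fell from 34.8 and 48.3 to 13.2 and 13.9 CPM (log2 fold change −1.61 ± 0.16 SE, adjusted p = 0.000963, edgeR). Ep300 and Crtc3, coactivators of CREB, rose with log2 fold changes of 0.47 and 0.35, and Crtc2 was at 45.3 and 47.3 against 49.6 and 49.1 CPM and was not called. Sik1, a salt-inducible kinase that is induced by cyclic AMP and phosphorylates class IIa histone deacetylases and CREB coactivators, fell from 122 and 132 to 49.3 and 48.8 CPM (log2 fold change −1.38). Of the 7 genes in its list 3 rose and 1 fell. Hdac9 and Hdac7 rose with log2 fold changes of 0.79 and 0.73, and Hdac5, the most abundant on TPM, was not called (−0.15, adjusted p = 0.105, edgeR).

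Among the 6 other arrestin and receptor kinase genes, 2 rose and 1 fell. Grk5, a kinase that phosphorylates active receptors, rose from 19.6 and 26.1 to 34.6 and 37.2 CPM, and Adrbk2 (GRK3) fell from 6.27 and 5.59 to 2.35 and 2.73 CPM. In the list of other G protein alpha and phospholipase C beta genes, 6 of 15 rose and 2 fell. Gnai1, an inhibitory alpha subunit gene, rose from 16.7 and 16.6 to 45.2 and 44.2 CPM (log2 fold change 1.42), Gna15 rose with 1.24 and Gna14 fell from 19 and 39 to 3 and 6 counts, while Gnai2, at 715 ± 38.7 against 819 ± 38.2 TPM (SD, n = 2 each), was not called.

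Other Gs-coupled receptors gave 5 higher and none lower of 12 by edgeR, or 41.7% called, against 30.5% of all genes tested. There were 6 higher and 1 lower at an unadjusted p under 0.05, and 2 higher and none lower by DESeq2. Adcyap1r1, the receptor of the peptide PACAP, rose from 1.77 and 1.70 to 11.0 and 10.6 CPM (log2 fold change 2.63), Vipr1 from 66 and 113 to 250 and 308 counts and Adrb1 from 43 and 19 to 55 and 71 counts. Calcrl, the most abundant on TPM, rose with a log2 fold change of 0.31. Of the 4 genes for Epac, the other cyclic AMP sensor, and its Rap targets, none was called by edgeR or DESeq2, and 1 was higher at an unadjusted p under 0.05, with Rap1b at 335 and 316 against 339 and 339 CPM.

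**Figure D5:**
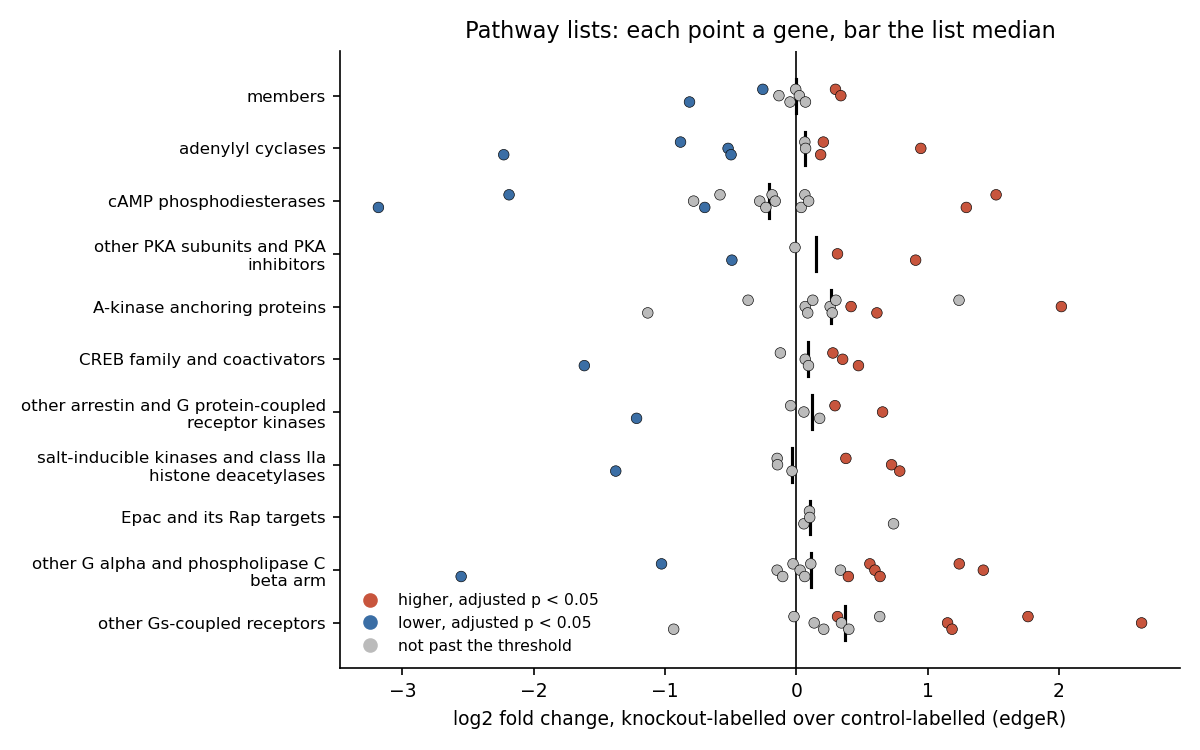
Log2 fold change (knockout-labelled over control-labelled, edgeR on counts) of every tested gene in the member list and in 10 pathway lists, with red for genes called higher, blue for genes called lower, grey for the others and a black bar at each list's median. The members lie between −0.81 and 0.34, and the phosphodiesterases reach −3.18 for Pde4d.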

How the data were processed

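Reads of the 4 RNA-seq libraries were checked with FastQC and FASTX and mapped by the authors with HISAT2 2.0.4, and genes were tested with Ballgown. The submitters' processing notes also name TopHat, MACS2, mm10 and mm9. The deposited estimated counts per gene are not normalized and the strand setting is not given in the sources used here. The deposited normalized values, headed FPKM, sum to 1000000 in each library and were treated as TPM. The authors' peak list, made with MACS2, holds, per peak, a pileup signal, a fold enrichment (the ratio of summit to local background) and the q-value as −log10 q, and p-values in it were not used.

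Estimated counts were rounded, 89 of 47732 entries without a gene name (0.110% to 0.125% of counts) were left out, and genes were filtered (filterByExpr), scaled (TMM) and tested two-sided with edgeR 4.0.16 quasi-likelihood without a block, with Benjamini-Hochberg adjustment over 15327 genes. CPM used TMM-scaled library sizes. Gene positions of the expression table are on mm10 and those of peaks on mm9, and none was converted. Peaks were placed by summit on GENCODE vM1. Shares were compared by an exact permutation test over libraries.

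The 10 genes and the pathway and marker lists were chosen with earlier results of these data known. Named pathway genes are the one with the highest mean TPM in each list and up to 3 called genes with the largest absolute log2 fold change, if 1 group had 10 or more counts in both libraries. Genes overlapping a member and Mettl3 were added to these, and Pth, Pth2, Pth2r and Cidec are named to account for small counts. Alternatives were DESeq2 1.42.0, a replicate block, no filter, size factors by the median of ratios, limma 3.58.1 on log2(TPM + 0.1), leaving out single libraries, summing the knockout-labelled pair, and ordinary linear models of log2(TPM + 1). Scripts were tested on simulated data. Limits for counts of 0 cover counting error alone, because without molecular identifiers reads are no independent molecules.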

Additional observations from a re-analysis of the deposited data

How the results depend on the processing

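The correlation of same-numbered deviations was 0.0276 (2 pairs). It cannot decide whether the replicate numbers pair the samples, since the knockout-labelled libraries differed by little more than counting noise. With the replicate number as a block, 4881 genes were called against 4677 without it, and no call among the 9 tested genes changed, while Adcy7 was lost (adjusted p = 0.0956, edgeR). Among values that were not called, the direction turned in these settings. For Pth1r the log2 fold change became 0.000286 without a filter, 0.000941 with median-of-ratios size factors, 0.00114 with DESeq2, 0.34 with limma and 0.32 with the linear model on TPM, 0.12 without control-labelled library 2 and 0.0384 without knockout-labelled library 2. For Prkaca it became 0.0532 with limma, 0.0521 with the linear model and 0.0125 without control-labelled library 2. Without control-labelled library 2, Prkacb turned to −0.0571 and its catalytic share to −0.877 percentage points, and without control-labelled library 1, Prkar1a turned to −0.0105. Of the 9 genes, 1 higher and 1 lower were called by DESeq2 and by limma, 0 and 1 with the knockout-labelled libraries summed, and 0 and 0 by the linear model. With single libraries left out, 0 to 3 were higher and 1 to 4 lower, the lowest counts coming without a knockout-labelled and the highest without a control-labelled library. Of the pathway list genes, called 29 higher and 13 lower, 15 and 8 were called with summed libraries, 1 and 1 with the linear model, 7 were lower by limma, and 13 to 42 were higher and 7 to 21 lower with single libraries left out. With single libraries left out, the log2 fold change ran from −0.12 to 0.12 for Pth1r, −0.10 to 0.0125 for Prkaca, −0.0571 to 0.22 for Prkacb and −0.0105 to 0.0633 for Prkar1a. The change in the share of catalytic subunits taken by Prkacb ran from −0.877 to 7.79 percentage points over libraries left out. With a −log10 q of at least 10 there were 3 peaks on 3 genes. The cause of these changes was not tested. In a fit without a control-labelled library the remaining one is assumed to vary like the knockout-labelled pair, whose libraries differed least. The p-values of such a fit hold no spread between control-labelled libraries. Depth limits Pthlh, and for Pth1r the counting error was 4.56% and 4.57% in the control-labelled libraries.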
